A study of Mus musculus with 40 samples.

Results

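Genes of transforming growth factor β (TGF-β) and platelet-derived growth factor (PDGF) signaling were followed through liver, duodenum and post-anastomotic ileum of mice after small bowel resection (SBR). They were chosen by name, 10 in all, as the ligands Tgfb1, Tgfb2 and Tgfb3, the latency protein gene Ltbp1, the receptors Tgfbr1 and Tgfbr2, the PDGF chains Pdgfa and Pdgfb, and the PDGF receptors Pdgfra and Pdgfrb. Of these 10 genes, 9 were among the 15958 genes of the expression table, and Tgfb2 was not analysed here. All animals were male wild-type C57BL/6 mice that had an operation at 8 weeks of age, either a sham operation or SBR, and were dosed daily for 7 weeks from 3 weeks after surgery. The sham group received vehicle, and the resected mice received either vehicle or 30 mg/kg WUSTL0717, a gut-restricted agonist of the liver X receptor. No sham group received WUSTL0717. By the sample labels SBR removed 50 to 60% of the small bowel, whereas the methods of the study describe a larger resection that spared the duodenum and terminal ileum. RNA-seq covered 40 libraries: 18 of liver (5 sham, 8 SBR vehicle, 5 SBR WUSTL0717), 11 of duodenum (3, 4 and 4) and 11 of ileum (3, 4 and 4).

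TGF-β is secreted bound to its own propeptide and to a latent TGF-β binding protein such as LTBP1, which anchors the inactive complex in the matrix until integrins or proteases release it. The freed ligand binds the type II receptor, which recruits and phosphorylates the type I receptor, and SMAD2 and SMAD3 then carry the signal to the nucleus. PDGF chains pair and bind the tyrosine kinase receptors PDGFRα and PDGFRβ. In injured liver, hepatic stellate cells are a main target of both ligand families: PDGF is a strong mitogen for them and TGF-β a strong inducer of their collagen genes.

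In GRCm38, Tgfb1 lies at chr7:25687002-25705077 on the plus strand, Tgfb3 at chr12:86056745-86079041 on the minus strand, and Ltbp1 at chr17:75005568-75392512 on the plus strand. Tgfbr1 is at chr4:47353222-47414931 on the plus strand and Tgfbr2 at chr9:116084293-116175360 on the minus strand. Pdgfa (chr5:138976014-138997370) and Pdgfb (chr15:79995874-80014977) are on the minus strand, and Pdgfra (chr5:75152292-75198215) is on the plus strand. All are protein-coding genes. Exons of Tgfb3, Pdgfa and Pdgfra overlap noncoding genes of the opposite strand in the annotation, and since the sources used here do not state whether reads were counted by strand, reads of these pairs cannot be told apart. Pdgfra also overlaps the microRNA gene Mir7025 on the same strand, which is among the genes of the expression table.

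The 250 bases before the transcription start were available from RefSeq (GRCm38.p6) for 6 of the 9 genes, in 9 windows. Tgfb3, Pdgfb and Pdgfrb had no such window. The windows of Tgfb1, Ltbp1 and Pdgfra are printed because Tgfb1 and Ltbp1 stand for ligand and latency protein, which differed in the size of their change, and Pdgfra had the largest change of the receptors with a window. Capitals mark matches on either strand to the SMAD box CAGAC, the AP-1 element TGAGTCA or the GC box GGGCGG. The windows are, in order, chr7:25686752-25687001, chr17:75005279-75005528, chr17:75178531-75178780 and chr5:75152001-75152250, all on the plus strand.
Tgfb1: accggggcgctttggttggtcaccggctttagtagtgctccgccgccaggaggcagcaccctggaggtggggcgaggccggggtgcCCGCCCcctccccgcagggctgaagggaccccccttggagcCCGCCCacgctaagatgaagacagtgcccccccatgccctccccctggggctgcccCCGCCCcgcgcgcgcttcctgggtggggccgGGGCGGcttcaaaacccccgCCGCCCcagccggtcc
Ltbp1 start 1: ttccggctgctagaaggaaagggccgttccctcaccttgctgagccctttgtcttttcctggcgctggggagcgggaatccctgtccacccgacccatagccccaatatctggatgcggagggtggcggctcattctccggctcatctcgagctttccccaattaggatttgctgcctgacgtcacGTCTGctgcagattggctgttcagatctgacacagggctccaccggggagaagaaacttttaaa
Ltbp1 start 2: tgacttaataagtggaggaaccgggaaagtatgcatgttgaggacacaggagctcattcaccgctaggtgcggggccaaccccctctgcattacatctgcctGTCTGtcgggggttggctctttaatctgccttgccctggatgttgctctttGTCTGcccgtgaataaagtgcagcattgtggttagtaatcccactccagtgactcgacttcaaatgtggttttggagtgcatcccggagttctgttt
Pdgfra: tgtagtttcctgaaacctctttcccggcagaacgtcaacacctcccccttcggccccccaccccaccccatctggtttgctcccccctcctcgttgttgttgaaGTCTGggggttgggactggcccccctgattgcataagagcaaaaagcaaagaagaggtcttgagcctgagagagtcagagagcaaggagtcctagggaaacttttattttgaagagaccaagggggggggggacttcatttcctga
The Tgfb1 window had a GC content of 75.2% and held 5 GC boxes, which lay from 164 to 16 bases before the start, and no SMAD box. The Ltbp1 windows, at 56.8% and 50.8% GC, held 1 and 2 SMAD boxes and no GC box, and the Pdgfra window, at 54.4% GC, held 1 SMAD box. Of the windows not printed, that of Tgfbr2 and the second of Tgfbr1 held 1 SMAD box each. The first of Tgfbr1 and those of Pdgfa held none. A relation between matches and the size of a change was not tested. Among all 32851 windows of this length, 42.2% held CAGAC, 32.7% held GGGCGG and 4.46% held TGAGTCA, the last of which was in none of the 9 windows. These matches are letters in a window and not evidence of binding. The expression table gives 1 value per gene, so the starts of Ltbp1 were not separated.

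The deposited values are log2 TPM, a measure scaled for gene length and library size, after the authors' ComBat step for batch. By the sample labels 1 batch held all intestinal libraries and another all liver libraries. The sources do not say which batches ComBat was given, and the methods of the study speak of effects between experimental groups. What the step did to levels, or to differences between groups, is therefore not known. The effect of tissue on a level cannot be told apart from that of batch, and levels are given within a tissue only. The tables held no counts, and sequencing depth is unknown. Back-transformed from the adjusted values with an assumed pseudocount of 1, the libraries' TPM summed to 687000 to 820000 in liver, 638000 to 863000 in duodenum and 618000 to 808000 in ileum. Marker levels given below in TPM came from the same back-transformation. In the deposited values hepatocyte genes were also high in intestinal libraries and enterocyte genes in liver, so the tissue labels could not be checked by the level of these markers. No source names the animal behind a library, and p-values measure the spread between libraries. In bulk tissue, fewer cells of a type and less RNA per cell cannot be told apart.

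All 9 genes were expressed in sham liver. Tgfb3 was the lowest, with a mean log2 TPM of 1.23 ± 0.14 (SD, n = 5), followed by Pdgfb (1.88 ± 0.15) and Ltbp1 (1.94 ± 0.15), whose levels did not differ beyond their spread. Pdgfra (2.69 ± 0.18) and Tgfb1 (3.16 ± 0.14) followed. The range of Pdgfra touched neither neighbor in this order, whereas that of Tgfb1 overlapped the range of Pdgfrb. Tgfbr1 (3.50 ± 0.11), Pdgfrb (3.55 ± 0.21) and Pdgfa (3.70 ± 0.28) overlapped, and Tgfbr2 was highest (4.05 ± 0.25) but overlapped Pdgfa. These levels include any shift from the batch step, so their order is that of the adjusted scale.

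All 9 genes rose in liver after SBR. In limma fits over 15901 genes, all 9 were higher in SBR vehicle than in sham with a Benjamini-Hochberg adjusted p between 4.83e-08 and 0.000267, in increases from 1.71-fold for Tgfbr1 to 3.57-fold for Pdgfrb. Over all genes tested, 37.4% were called higher in this comparison. In all 9 genes the lowest of the 8 SBR vehicle livers was above the highest of the 5 sham livers, a pattern found in 15.6% of all genes, and each exact two-sided permutation test gave p = 0.000777, the smallest that 1287 splits allow. The median log2 difference over all genes was 0.25, and relative to it the members' increases ranged from 0.53 to 1.59. With every library centered on its own median, 41.5% of the 7825 called genes were higher, against 89.3% of 6663 as deposited, but all 9 members remained called higher.

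**Figure D1:**
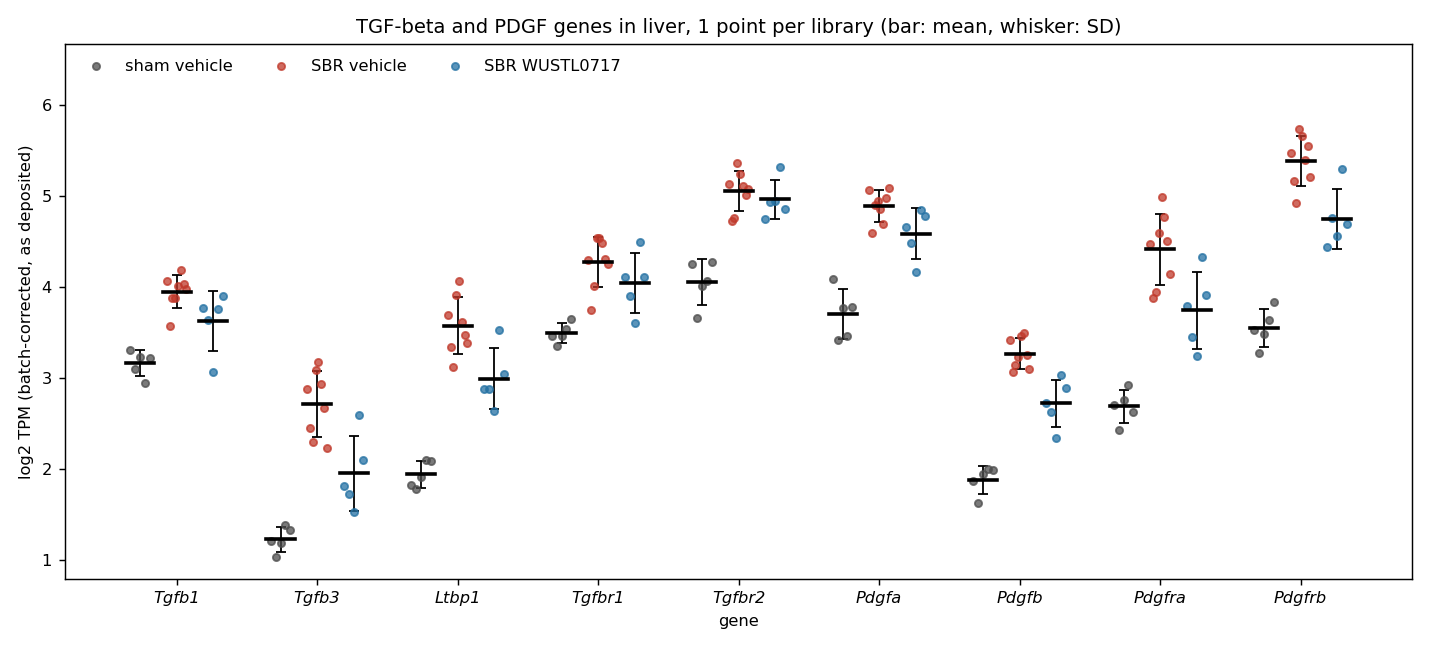
Log2 TPM of the 9 genes in each liver library (points) by group, with group means and SD as bars, for sham (n = 5), SBR vehicle (n = 8) and SBR WUSTL0717 (n = 5). For every gene all SBR vehicle points lie above all sham points, and for Pdgfb all WUSTL0717 points lie between the other groups.

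Among the TGF-β ligands, Tgfb1, the most widely expressed isoform, had log2 TPM of 3.31, 3.11, 3.23, 2.94 and 3.22 in the 5 sham livers. In the 8 SBR vehicle livers its lowest, median and highest values were 3.57, 4.00 and 4.19, and in the 5 SBR WUSTL0717 livers it measured 3.77, 3.63, 3.07, 3.76 and 3.90. The sham and SBR vehicle groups were separate, whereas the third WUSTL0717 liver fell within the sham range. Tgfb1 rose by 0.79 on the log2 scale after SBR (SE 0.13, 95% interval 0.52 to 1.05, limma adjusted p = 6.97e-05).

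Tgfb3, the isoform often found in mesenchymal cells, measured 1.21, 1.03, 1.19, 1.38 and 1.33 in sham. It had 2.24, 2.78 and 3.18 as its lowest, median and highest values in SBR vehicle, and 1.81, 1.73, 1.53, 2.60 and 2.10 in SBR WUSTL0717. The sham values were below all others, and 4 of the 5 treated livers were below the whole SBR vehicle range. The increase after SBR was 1.49 (SE 0.18, limma adjusted p = 3.15e-06), which corresponds to 2.80-fold.

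Ltbp1, which encodes the latent TGF-β binding protein, measured 1.83, 1.78, 1.91, 2.10 and 2.09 in sham. In SBR vehicle it ranged from 3.12 to 4.06 with a median of 3.55, and in SBR WUSTL0717 it measured 2.88, 2.88, 2.64, 3.53 and 3.05. Again 4 of the 5 treated livers lay between the sham and the SBR vehicle ranges, and the fourth treated liver lay inside the latter. Ltbp1 rose by 1.64 after SBR (SE 0.16, limma adjusted p = 2.40e-07), or 3.11-fold.

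The increases of the TGF-β receptors were no more than 1.00 on the log2 scale. Tgfbr1, the type I receptor kinase, measured 3.46, 3.35, 3.47, 3.54 and 3.65 in sham, 3.75 to 4.54 with a median of 4.30 in SBR vehicle, and 4.11, 3.91, 3.60, 4.50 and 4.11 in SBR WUSTL0717. Tgfbr2, the ligand-binding type II receptor kinase, measured 4.26, 3.66, 4.01, 4.07 and 4.28 in sham, 4.72 to 5.36 with a median of 5.09 in SBR vehicle, and 4.75, 4.94, 4.95, 5.32 and 4.86 in SBR WUSTL0717. For Tgfbr2 every treated liver lay inside the SBR vehicle range, and for Tgfbr1 all but the third treated liver did. The increases after SBR were 0.78 for Tgfbr1 (SE 0.14, limma adjusted p = 0.000267) and 1.00 for Tgfbr2 (SE 0.13, limma adjusted p = 5.20e-06).

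Of the PDGF chains, Pdgfa measured 4.09, 3.42, 3.77, 3.46 and 3.78 in sham, 4.59 to 5.08 with a median of 4.93 in SBR vehicle, and 4.66, 4.49, 4.16, 4.85 and 4.79 in SBR WUSTL0717. Pdgfb, whose product binds both PDGF receptors, measured 1.87, 1.62, 1.94, 2.00 and 1.98 in sham, 3.06 to 3.49 with a median of 3.24 in SBR vehicle, and 2.72, 2.63, 2.34, 3.03 and 2.89 in SBR WUSTL0717. Pdgfb was the one gene of the 9 whose 3 groups were fully separate, with the treated livers between the others. Pdgfa rose by 1.19 (SE 0.13, limma adjusted p = 1.03e-06) and Pdgfb by 1.38 (SE 0.12, limma adjusted p = 6.05e-08) after SBR.

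The PDGF receptors had the largest increases of the 9 genes. Pdgfra, which marks many fibroblast populations, measured 2.70, 2.43, 2.75, 2.93 and 2.63 in sham, 3.88 to 5.00 with a median of 4.49 in SBR vehicle, and 3.80, 3.45, 3.24, 4.33 and 3.91 in SBR WUSTL0717. Pdgfrb (chr18:61045150-61085061, plus strand), a receptor of stellate cells, pericytes and myofibroblasts, measured 3.53, 3.27, 3.48, 3.64 and 3.83 in sham, 4.92 to 5.74 with a median of 5.44 in SBR vehicle, and 4.44, 4.76, 4.56, 5.30 and 4.70 in SBR WUSTL0717. All sham livers were below all resected livers for both receptors, and in each the fourth treated liver was the highest of its group. The increases were 1.73 for Pdgfra (SE 0.19, limma adjusted p = 1.15e-06) and 1.84 for Pdgfrb (SE 0.15, limma adjusted p = 4.83e-08), or 3.31-fold and 3.57-fold.

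The comparison of SBR WUSTL0717 with SBR vehicle addressed whether treatment altered the livers of resected mice. Of the 9 genes, 4 fell: Pdgfb, Pdgfrb, Tgfb3 and Ltbp1, against 2.66% of all genes called lower, and none rose. The study had already reported Tgfb1, Ltbp1 and Pdgfb as lowered by treatment in liver after SBR. The count is therefore not that of an unselected set. Pdgfb fell by 0.55 on the log2 scale (SE 0.12, 95% interval -0.79 to -0.30, limma adjusted p = 0.0151), and its groups did not overlap, which was the case for 1 of the 9 genes and for 0.308% of all genes in this direction. Pdgfrb fell by 0.64 (SE 0.15, interval -0.95 to -0.32, limma adjusted p = 0.0225). Tgfb3 fell by 0.77 (SE 0.18, interval -1.14 to -0.39, limma adjusted p = 0.0231). Ltbp1 fell by 0.58 (SE 0.16, interval -0.91 to -0.26, limma adjusted p = 0.0413). Exact two-sided permutation tests of these 4 genes gave p = 0.000777, 0.00466, 0.00777 and 0.0109.

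The other 5 genes did not pass. Pdgfra had a difference of -0.67 (interval -1.07 to -0.27, limma adjusted p = 0.0545, exact permutation p = 0.0155). Tgfb1 had a difference of -0.32 (interval -0.59 to -0.06, limma adjusted p = 0.180) and Pdgfa one of -0.30 (interval -0.58 to -0.03, limma adjusted p = 0.227). Tgfbr1 had -0.23 (interval -0.53 to 0.07, limma adjusted p = 0.466) and Tgfbr2 had -0.09 (interval -0.35 to 0.18, limma adjusted p = 0.815). All 9 differences were below 0, as were 45.2% of those of all genes, and 7 had an unadjusted p under 0.05, against 17.2% of all genes. The median difference of all genes was 0.02.

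The 4 calls rested on the spread shared between groups and on single livers. Without the second or without the third treated liver no member was called, without the first only Pdgfb, and without the fifth only Pdgfb and Tgfb3. The call for Ltbp1 was also lost without SBR vehicle liver 1, 4, 5, 6 or 7 (limma adjusted p of 0.0597 to 0.0759). Without the fourth treated liver, the highest of its group for all members but Tgfb1, Pdgfra was called too, with a difference of -0.82 (limma adjusted p = 0.0122), as it was without SBR vehicle liver 2 (adjusted p = 0.0243) or 3 (adjusted p = 0.0348). With the third treated liver left out the adjusted p values of Pdgfb, Pdgfrb, Tgfb3 and Ltbp1 were 0.0659, 0.0902, 0.0985 and 0.157, with differences of -0.45, -0.59, -0.66 and -0.49. A test that drew its spread from the 2 compared groups alone called none of the 9, with limma (148 of all genes called) or with an unmoderated test that shares no spread between genes (0 of all genes called). Giving libraries unequal weights called 7 of the 9, centering each library 5 and quantile normalization 6, and none of these settings gave a member an increase. Over all genes these settings called 13.8%, 8.19% and 8.48% lower and 3.92%, 11.5% and 8.09% higher, so that centering turned the split of all calls from 35.1% to 58.4% higher.

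**Figure D2:**
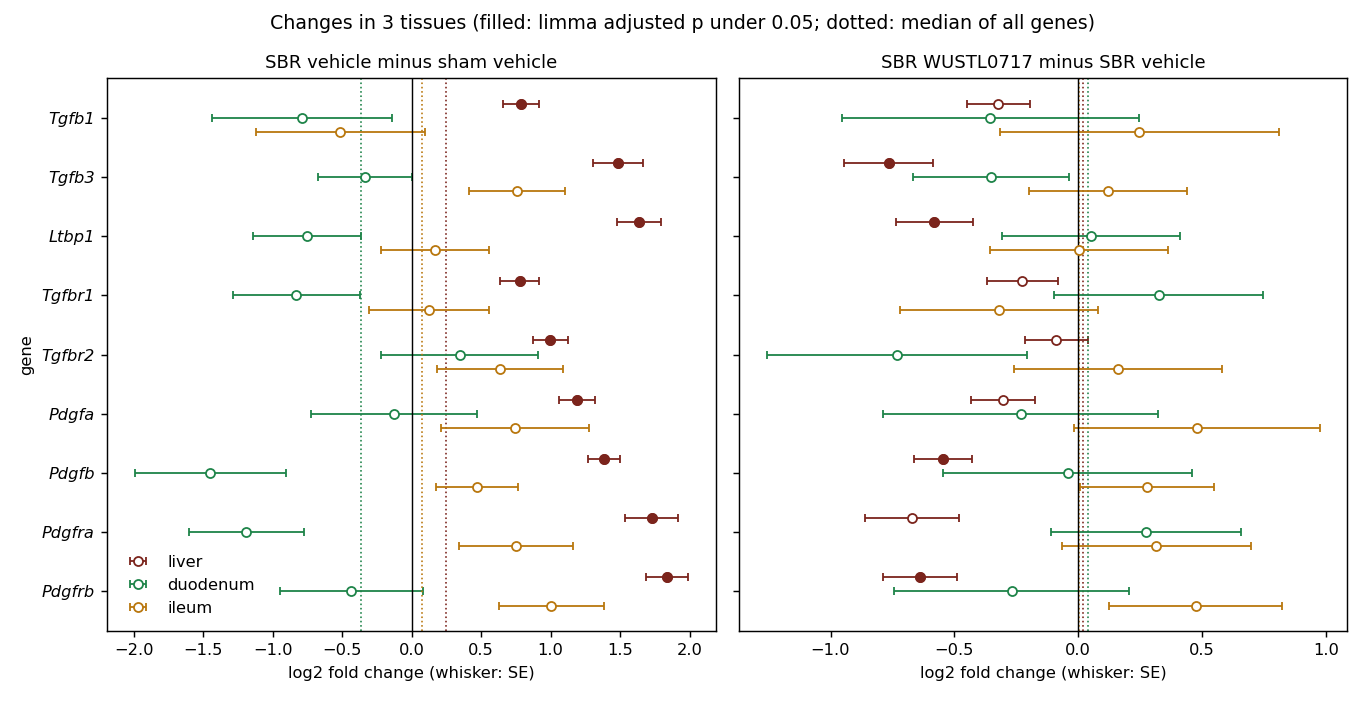
Log2 differences of the 9 genes (points, with whiskers of 1 SE) in liver, duodenum and ileum for SBR vehicle minus sham and for SBR WUSTL0717 minus SBR vehicle, with called genes filled and dotted lines at the median of all genes in a tissue. After SBR the filled liver points run from 0.78 to 1.84, and no intestinal point is filled.

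Treated livers were not at the sham level. Against sham, all 9 genes were higher in SBR WUSTL0717 by limma, where 27.9% of all genes were called higher, from 0.47 for Tgfb1 (adjusted p = 0.0210) to 1.20 for Pdgfrb (adjusted p = 0.000107). The others were 0.55 for Tgfbr1 (adjusted p = 0.0166), 0.72 for Tgfb3 (adjusted p = 0.0135), 0.84 for Pdgfb, 0.89 for Pdgfa, 0.91 for Tgfbr2, 1.05 for Ltbp1 and 1.06 for Pdgfra (limma adjusted p of these 5 between 0.000261 and 0.00192). The groups were separate for 7 genes, a pattern seen in 27.4% of all genes, and overlapped for Tgfb1 and Tgfbr1. The median of all genes was 0.27 in this comparison, and with each library centered 6 of the 9 were called, where 10.7% of all genes were called higher and 8.93% lower, with adjusted p of 0.379 for Tgfb1, 0.0587 for Tgfb3 and 0.0509 for Tgfbr1. Quantile normalization left 7 called (11.2% of all genes higher), without Tgfb1 (adjusted p = 0.410) and Tgfbr1 (adjusted p = 0.0626). With 1 library left out, 7 to 9 were called. The call for Tgfb1 was lost without sham liver 2 or treated liver 1, 4 or 5 and by the unmoderated test (adjusted p = 0.0524), and that for Tgfbr1 without treated liver 4 (limma adjusted p = 0.0615). This comparison shares its libraries with the other 2 and adds no independent evidence to them.

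Partner genes were also compared by their ratio within a library, on the deposited scale, with pairs that were chosen after the data were seen. The log2 ratio of Ltbp1 to Tgfb1 was -1.22 ± 0.24 (SD, n = 5) in sham and -0.37 ± 0.30 (SD, n = 8) in SBR vehicle, with no overlap between the groups. The difference of 0.85 had an exact permutation p = 0.000777 and 0.0117 after Benjamini-Hochberg adjustment over 15 tests. The ratio of Tgfb3 to Tgfb1 went from -1.93 ± 0.22 to -1.23 ± 0.33 (exact permutation p = 0.00466, adjusted 0.0350), although the ranges overlapped. The call for Tgfb3 was lost with a pseudocount of 5, where the difference was 0.16, and when sham liver 1, 2, 3 or 5 or SBR vehicle liver 1 or 2 was left out (differences of 0.66 to 0.71, adjusted exact permutation p of 0.0505 to 0.0758). The receptor ratios did not pass on the deposited values. That of Tgfbr2 to Tgfbr1 differed by 0.22 (exact permutation p = 0.0148, adjusted 0.0738), but it passed with quantile normalization, with a pseudocount of 5, and without sham liver 1 or SBR vehicle liver 6 (adjusted exact permutation p of 0.0303 to 0.0379). That of Pdgfrb to Pdgfra differed by 0.11 (exact permutation p = 0.382, adjusted 0.449). Between treated and untreated SBR livers no ratio passed the adjusted test on the deposited values. Those of Tgfb3 to Tgfb1 (-0.44) and Pdgfb to Pdgfa (-0.24) both had an adjusted p = 0.0932 by exact permutation, and the latter passed without SBR vehicle liver 8 (-0.29, adjusted exact permutation p = 0.0442).

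**Figure D3:**
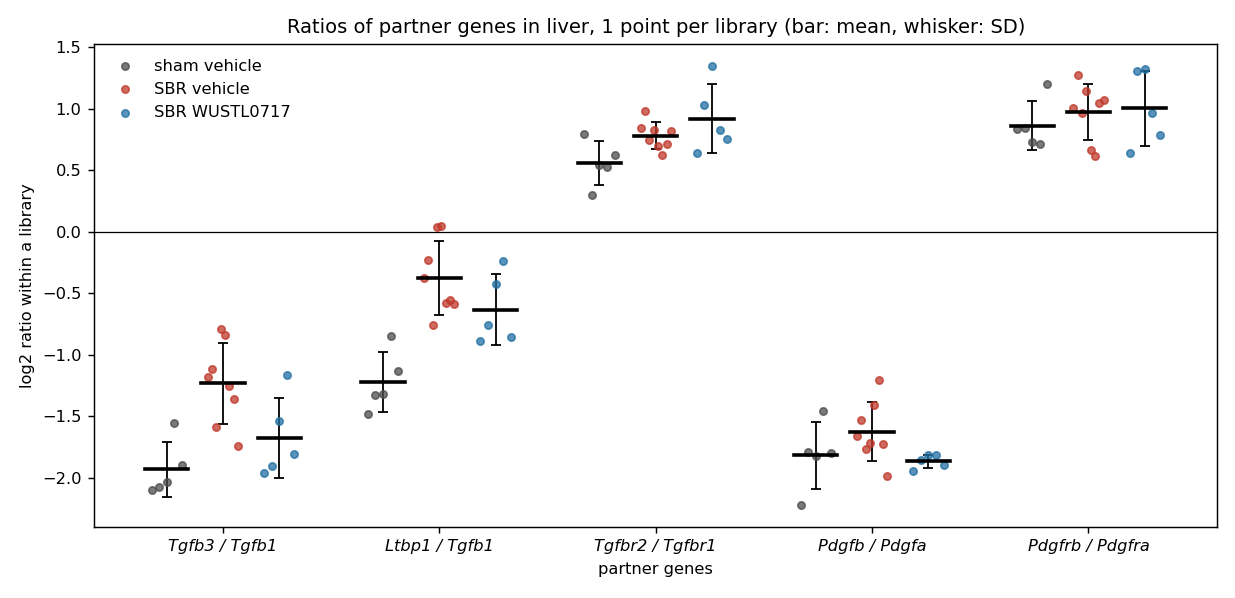
Within-library log2 ratios of 5 pairs of partner genes in each liver library (points), by group, with means and SD. The ratio of Ltbp1 to Tgfb1 is higher in every SBR vehicle liver than in every sham liver, whereas the ranges of Pdgfrb to Pdgfra overlap between all groups.

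The other genes of these pathways were taken from 7 lists of 87 genes, of which 79 were tested. In liver after SBR, 53 of the 79 rose and 1 fell (Inhbc, an activin chain gene made mainly by hepatocytes, by 0.47, limma adjusted p = 0.0317), against 37.4% and 4.47% of all genes, and the split was 44 higher and 13 lower with each library centered, against 20.4% and 28.8% of all genes. Between WUSTL0717 and vehicle in SBR livers, 18 of the 79 fell and none rose, against 2.66% and 1.44% of all genes. That count was 11 when genes under a mean of 3 were left out, 6 with the compared groups alone, 0 by the unmoderated test and 36 with library weights. It ranged from 5 without the second treated liver to 24 without the second SBR vehicle liver, and centering gave 32 lower and 4 higher, against 8.19% and 11.5% of all genes. Against sham, 46 of the 79 were higher in treated livers and none lower, against 27.9% of all genes called higher. With each library centered, 29 were higher and 3 lower, against 10.7% and 8.93% of all genes.

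Of 17 tested genes that hold TGF-β latent or release it, 15 rose after SBR, against 37.4% of all genes. Their median log2 difference was 0.91 beside 0.25 for all genes, and with each library centered 15 were higher, 2 were lower and the median was 0.60. Ltbp3, a further latent binding protein, rose by 1.79 (SE 0.14, limma adjusted p = 2.34e-08), the metalloproteinase gene Mmp2 by 2.52 (SE 0.21, adjusted p = 4.78e-08), and Emilin1, whose product binds the TGF-β precursor, by 1.46 (SE 0.13, adjusted p = 1.08e-07). With treatment 6 of the 17 fell (median -0.45), against 2.66% of all genes, and 13 were lower with centering and 14 with quantile normalization. They included Ltbp3, which fell by 0.75 (adjusted p = 0.00728), Ltbp2 by 1.08 (adjusted p = 0.00919) and Mmp2 by 1.03 (adjusted p = 0.0122) in limma.

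Of the co-receptors and SMAD effectors 6 of 9 rose after SBR, against 37.4% of all genes, with a median of 0.31 beside 0.25 for all genes. With each library centered, however, 3 were higher, 1 was lower and the median was at 0. Centering called 20.4% of all genes higher and 28.8% lower. On this list the calls with the smallest p were the endothelial co-receptor Eng (0.61, limma adjusted p = 0.000212), its type I receptor partner Acvrl1 (0.46, adjusted p = 0.000772) and Smad3 (0.49, adjusted p = 0.00141). Between treated and untreated SBR livers none of the 9 was called on the deposited values, 2 were higher with centering (11.5% of all genes) and 1 with quantile normalization (8.09% of all genes). Of the pathway inhibitors 9 of 10 rose after SBR (median 0.86), and with centering 8 were higher, 1 was lower and the median was 0.55. Pmepa1 rose by 1.65 (adjusted p = 1.16e-07), the SMAD corepressor Ski by 0.84 (adjusted p = 1.33e-05) and the pseudoreceptor Bambi by 0.99 (adjusted p = 3.59e-05) in limma. With treatment, Pmepa1 fell by 0.71 (limma adjusted p = 0.0144) and Bambi by 0.56 (limma adjusted p = 0.0440), and the other 8 were not called (3 lower in all with centering). Of all genes, 2.66% were called lower in this comparison, and 8.19% with centering.

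Matrix and cytoskeletal genes that TGF-β induces had the highest median of the pathway lists with more than 2 genes, at 1.50. After SBR 11 of 14 rose, against 37.4% of all genes. With centering 10 were higher and 1 lower, against 20.4% and 28.8% of all genes. The fibrillar collagen genes were up, Col1a1 by 3.36 (SE 0.23, limma adjusted p = 1.04e-08), Col3a1 by 2.75 (SE 0.20, adjusted p = 1.93e-08) and Col1a2 by 2.44 (SE 0.19, adjusted p = 3.02e-08). With treatment 6 of the 14 fell, against 2.66% of all genes, and 10 were lower with centering, against 8.19%. Col1a1 fell by 1.47 (limma adjusted p = 0.00401), with no overlap between the groups (0.308% of all genes in this direction), Col3a1 by 1.14 (adjusted p = 0.00722) and Col1a2 by 1.02 (adjusted p = 0.00919). The study had already reported Col1a1 and Col3a1 as lowered by treatment.

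On the PDGF side, the remaining chains both rose after SBR, Pdgfd by 1.49 (SE 0.17, limma adjusted p = 1.45e-06) and Pdgfc by 1.41 (SE 0.19, adjusted p = 8.53e-06). With treatment Pdgfd fell by 0.68 (adjusted p = 0.0290), while Pdgfc had -0.60 (limma adjusted p = 0.0828). Of 14 signal transducers downstream of the receptors 4 rose, a smaller share than the 37.4% of all genes, and their median of 0.23 was near the 0.25 of all genes. With each library centered 2 were higher and 3 lower. The called genes included the kinase gene Src (1.95, limma adjusted p = 3.06e-08), the adaptor gene Nck2 (1.20, adjusted p = 9.53e-07) and the phosphatase gene Ptpn11 (0.34, adjusted p = 0.0141). Src fell by 0.61 (adjusted p = 0.0305) and Nck2 by 0.56 (adjusted p = 0.0218) with treatment in limma. With centering 2 of the 14 were higher and 2 lower in that comparison, and with quantile normalization 1 was higher and 2 were lower.

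Of 13 bone morphogenetic protein (BMP) and activin ligands and antagonists, 6 rose and 1 fell after SBR, near the 37.4% and 4.47% of all genes, with a median of 0.26 beside 0.25 for all genes. Centering gave 4 higher and 5 lower. Gdf2, which encodes BMP9, rose by 1.01 (limma adjusted p = 7.32e-06), Inhbb, the activin B chain gene, by 1.33 (adjusted p = 9.46e-06) and Bmp5 by 0.68 (adjusted p = 0.00121). With treatment only Inhbb fell, by 0.64 with a limma adjusted p = 0.0496 (2 lower with centering).

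**Figure D4:**
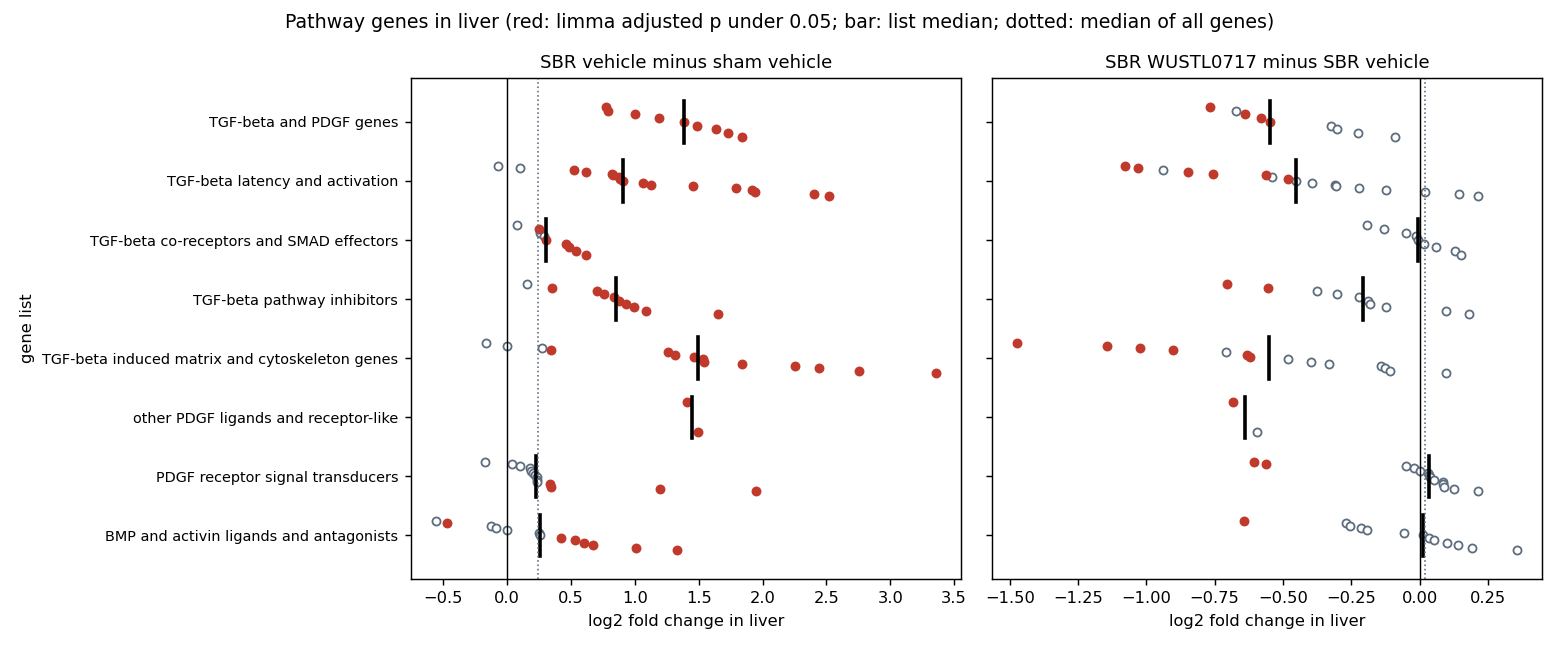
Log2 differences of every tested gene in the 7 pathway lists in liver (points), for SBR vehicle minus sham and for SBR WUSTL0717 minus SBR vehicle, with called genes filled, a bar at each list's median and a dotted line at the median of all genes. The 9 members are the top row. The matrix list reaches 3.36 (Col1a1) after SBR and -1.47 with treatment, and the co-receptor and SMAD list has no called gene with treatment.

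Markers of several cell types moved with the same comparisons, and their part in the result was not tested. Over all genes, 37.4% were called higher after SBR, and 20.4% higher and 28.8% lower with each library centered. With treatment, 2.66% of all genes were called lower and 1.44% higher. These shares were 8.19% and 11.5% with centering and 8.48% and 8.09% with quantile normalization. Of the stellate cell markers, 8 of 10 rose after SBR, and 7 were higher and 2 lower with each library centered. With treatment none was called on the deposited values, 1 was higher and 2 lower with centering, and 1 was higher and 3 lower with quantile normalization. Their summed TPM was 196 to 246 in sham, 208 to 336 in SBR vehicle and 263 to 325 in SBR WUSTL0717. Of the myofibroblast markers, which share collagen genes with the matrix list, 5 of 7 rose and 4 of 7 fell with treatment, with sums of 70.9 to 120, 278 to 506 and 143 to 301 TPM. Of the cholangiocyte markers, 5 of 5 rose and 4 of 5 fell with treatment, with sums of 61.4 to 158, 319 to 646 and 177 to 411 TPM. The myofibroblast and cholangiocyte sums of all SBR vehicle livers were above those of all sham livers, whereas the stellate cell sums overlapped. The mean log2 of the stellate cell markers did not overlap, at 3.60 to 3.93 in sham and 4.05 to 4.70 in SBR vehicle, and was 4.21 to 4.59 in SBR WUSTL0717. In treated livers against sham, 7 of 10 stellate cell, 4 of 7 myofibroblast and 5 of 5 cholangiocyte markers were called higher and none lower. The same held for 4 of 9 endothelial markers, where 27.9% of all genes were called higher. With each library centered, 3 stellate cell, 4 myofibroblast and 1 endothelial marker were higher, against 10.7% of all genes.

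In liver after SBR, where 37.4% of all genes rose, 2 of 9 endothelial markers rose (1 higher and 4 lower with each library centered), and among 9 macrophage markers 3 rose and 1 fell (3 higher and 4 lower with centering). With treatment no endothelial marker was called (3 were higher with centering) and 1 macrophage marker, Clec4f of Kupffer cells, rose by 0.75 (limma adjusted p = 0.0459), a split that was 4 higher and 1 lower with centering. The platelet chemokine gene Pf4, the only platelet marker in the table, rose by 1.30 after SBR (limma adjusted p = 1.63e-05), with 1.15 to 2.41 TPM in sham and 2.74 to 8.75 TPM in SBR vehicle. With treatment Pf4 had -0.43 (limma adjusted p = 0.218), and it was called lower with centering. Of 6 hepatocyte markers 1 rose and 2 fell after SBR (1 higher and 4 lower with centering), with sums of 14700 to 19900 TPM in sham and 9970 to 19900 TPM in SBR vehicle. Of 6 enterocyte markers 2 rose after SBR (1 higher and 3 lower with centering) and 1, Vil1, fell with treatment. No marker of smooth muscle (5) or lymphocytes (2) was called in either comparison on the deposited values, but 4 of the 5 smooth muscle markers were lower after SBR with centering and with quantile normalization. No marker on any list was at 0 in every liver library.

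Over the 18 liver libraries, after each group's mean was removed, the 36 pairs of members had Pearson correlations from 0.28 to 0.95 with a median of 0.71, and 26 (72.2%) exceeded 0.5. Over all pairs of the tested genes that varied, the median was 0.48 and 47.5% exceeded 0.5. The points share libraries and their scaling, and these values are a description. Libraries also shifted over all genes: the members averaged 0.43 above their group mean in the fourth treated liver and 0.37 below it in the third, where all genes averaged 0.17 above and 0.09 below. The most similar patterns among all genes over these 18 libraries were those of Mark4 for Tgfb1 (r = 0.92, Spearman's rho = 0.88), Col4a2 for Tgfb3 (r = 0.97, rho = 0.96), Olfml3 for Ltbp1 (r = 0.96, rho = 0.96), Cerk for Tgfbr1 (r = 0.96, rho = 0.98) and Tns3 for Tgfbr2 (r = 0.95, rho = 0.93). For the PDGF genes they were Gm18821 for Pdgfa (r = 0.85, rho = 0.80), Cldn7 for Pdgfb (r = 0.92, rho = 0.89), Cdk19 for Pdgfra (r = 0.98, rho = 0.95) and Angptl2 for Pdgfrb (r = 0.95, rho = 0.91). Without the 2 libraries farthest from the member's median, r was 0.81 for Mark4 and 0.75 for Gm18821.

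In duodenum, which resection left in place, no member was called after SBR by limma, which called 0 of 15093 genes, or by the unmoderated test. Of the 9 genes, 2 had an unadjusted p under 0.05, against 16.1% of all genes. Pdgfb measured 2.43, 2.65 and 4.21 in sham and 1.53, 1.73, 1.98 and 1.35 in SBR vehicle. These groups did not overlap, as for 6.24% of all genes in this direction, and the difference was -1.45 (SE 0.54, limma adjusted p = 0.276, exact permutation p = 0.0286, the smallest that 35 splits allow). Pdgfra measured 3.03, 3.42 and 3.55 in sham and 3.08, 1.54, 1.96 and 1.99 in SBR vehicle, a difference of -1.19 (SE 0.41, limma adjusted p = 0.274). Without the first SBR vehicle duodenum Pdgfra was called lower, with a difference of -1.50 (limma adjusted p = 0.0497). Of the 9 differences 8 were below 0 (6 with each library centered), as for 70% of all genes, whose median was -0.36. The exception was Tgfbr2, with 3.53, 3.25 and 4.28 in sham, 4.83, 2.88, 5.10 and 3.32 in SBR vehicle and a difference of 0.35 (interval -0.89 to 1.58).

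The remaining duodenal differences after SBR had wide intervals, from -2.20 to 0.62 for Tgfb1 and from -1.43 to 1.18 for Pdgfa. With treatment no member was called in duodenum by limma or without moderation (0.258% of all genes called by limma), and none had an unadjusted p under 0.05, against 5.31% of all genes. The differences ran from -0.73 for Tgfbr2 (interval -1.87 to 0.41) to 0.32 for Tgfbr1 (interval -0.59 to 1.24). Pdgfb measured 2.70, 1.02, 0.58 and 2.13 in treated duodenum and Pdgfra 3.15, 2.31, 2.07 and 2.15. Against sham no member was called in treated duodenum by either test (0.802% of all genes by limma), 2 had an unadjusted p under 0.05 (16.9% of all genes), and all 9 differences were below 0 (8 with each library centered), as were 67.2% of all genes. They ran from -1.49 for Pdgfb (limma adjusted p = 0.224) to -0.36 for Pdgfa.

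In ileum no member was called after SBR either (limma or unmoderated; 0.349% of all genes called by limma), and 2 had an unadjusted p under 0.05, against 8.46% of all genes. Here 8 of the 9 differences were above 0, as for 57.7% of all genes. Pdgfrb measured 3.55, 3.65 and 4.83 in sham and 5.11, 5.35, 4.70 and 4.91 in SBR vehicle, a difference of 1.00 (SE 0.38, limma adjusted p = 0.418, exact permutation p = 0.0571). Tgfb3 measured 1.10, 1.98 and 2.20 in sham and 3.18, 1.99, 2.18 and 2.73 in SBR vehicle (difference 0.76, limma adjusted p = 0.580). The third sham ileum was the highest of its group for Pdgfrb and lay inside the SBR vehicle range. Tgfb1 had the lowest difference, -0.51 (interval -1.84 to 0.81), with 2.53, 4.39 and 3.24 in sham and 2.36, 3.55, 3.52 and 2.07 in SBR vehicle.

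With treatment no member was called in ileum (limma or unmoderated; 0.0697% of all genes called by limma) and none had an unadjusted p under 0.05 (6.87% of all genes), with differences from -0.32 for Tgfbr1 to 0.48 for Pdgfa. Against sham, Pdgfrb in treated ileum measured 5.25, 6.08, 5.75 and 4.88, all above the sham values, with a difference of 1.48 (SE 0.38, limma adjusted p = 0.0709, exact permutation p = 0.0286). Without the third sham ileum this difference was 1.89 and Pdgfrb was called (limma adjusted p = 0.0341). No member was called in this comparison with all libraries by either test (2.17% of all genes by limma), 5 had an unadjusted p under 0.05 (14.1% of all genes), and the groups were separate for Pdgfb, Tgfb3 and Pdgfrb, against 9.46% of all genes in this direction.

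The other pathway genes gave few calls in intestine. After SBR limma called none of 76 tested genes in duodenum and none of 79 in ileum, with 7 and 10 at an unadjusted p under 0.05, against 16.1% and 8.46% of all genes. Their median differences were -0.48 and 0.29. With treatment it again called none in either tissue (1 and 8 at an unadjusted p under 0.05, against 5.31% and 6.87% of all genes). Against sham, treated duodenum had no call (13 at an unadjusted p under 0.05, against 16.9% of all genes) and treated ileum had 2, against 2.17% of all genes called, both lower: Smad4, which encodes the shared SMAD partner, fell by 1.65 (SE 0.30, limma adjusted p = 0.0177), and the gelatinase gene Mmp9 fell by 1.47 (SE 0.26, limma adjusted p = 0.0174). These were named after their values were seen.

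The spread between libraries was larger in intestine, with a median within-group SD of the 9 genes of 0.26 in liver, 0.70 in duodenum and 0.58 in ileum, and the number of libraries smaller. The difference between tissues was therefore tested directly, by limma over all 40 libraries. The effect of SBR was more positive in liver than in duodenum for 6 of the 9 genes, against 26.5% of all genes. The difference of effects was 2.92 for Pdgfra (interval 2.03 to 3.81, adjusted p = 1.25e-05), 2.83 for Pdgfb (interval 1.96 to 3.70, adjusted p = 1.35e-05), 2.39 for Ltbp1 (adjusted p = 5.10e-05) and 2.27 for Pdgfrb (adjusted p = 0.000393). For Tgfb3 it was 1.82 (adjusted p = 0.000664) and for Tgfbr1 1.60 (adjusted p = 0.00747). Tgfb1 (1.57, adjusted p = 0.0541), Pdgfa (1.32) and Tgfbr2 (0.65, adjusted p = 0.336) did not pass.

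Between liver and ileum, only Ltbp1 passed, against 3.77% of all genes, with a difference of effects of 1.47 (interval 0.65 to 2.28, limma adjusted p = 0.0221). Its call was lost when the third sham, the second SBR vehicle or the fourth SBR vehicle ileum was left out, and with the replicate number as a block. The other 8 differences were 0.36 to 1.30, with adjusted p of 0.241 or more. For the effect of WUSTL0717, no member differed between liver and duodenum or between liver and ileum by limma, where 0.645% and 0.127% of all genes were called with a more negative effect in liver. The largest of these differences was -1.11 for Pdgfrb against ileum (interval -1.99 to -0.24, adjusted p = 0.483), so the effects on these genes in liver and intestine were not distinguishable at this spread. Because each batch held 1 kind of tissue, a difference between tissues cannot be told apart from one between batches.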

How the data were processed

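RNA from liver (median right lobe), duodenum and post-anastomotic ileum was depleted of ribosomal RNA and sequenced by the authors. According to their methods, reads were aligned with STAR to GRCm38 and counted per Ensembl gene with featureCounts, and TPM values were log2-transformed and adjusted for batch with ComBat. The deposited values are log2 TPM. Values ranged from -1.69 to 18.4 and 2752 were below 0. Depth is unknown, and no count test was possible.

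For each tissue, genes whose mean reached 1 on this scale were fitted with limma 3.58.1 in R 4.3.3 (3 groups together, variance trend), which left 15901 genes in liver, 15093 in duodenum and 15772 in ileum. Two-sided p-values were adjusted by Benjamini-Hochberg over all genes tested, and a gene was called at an adjusted p under 0.05. Intervals are 95%. Fold changes are on the deposited scale, which understates those of low genes if a pseudocount was added. Exact permutation tests used single values. Differences between tissues were contrasts of contrasts over the 40 libraries. Every member was named, as were up to 3 genes per list and comparison with the smallest p among those called. Members, lists and tests were chosen with earlier results of these data known. The limma code was tested on simulated data. Positions came from GENCODE and promoter windows from RefSeq. Alternatives changed the filter, pseudocount, scaling, variance model, weights, samples fitted and replicate block, or left out 1 library. The unmoderated test and the fit of the compared groups alone were not applied to the differences between tissues. Listed genes outside the table were not analysed here.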

Additional observations from a re-analysis of the deposited data

Results flagged for a closer look

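In the treated ileum, the second library had a Pdgfra log2 TPM of 5.59, far from the 4.12, 4.13 and 4.07 of the other 3 libraries of its group. Over the 63 groups of member values that were large enough to test for a distant library this was the only one, and chance picks out about 1 in 20 such groups.

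The effect of SBR differed between liver and duodenum for Pdgfra (by 2.92 on the log2 scale), Pdgfb (2.83), Ltbp1 (2.39), Pdgfrb (2.27), Tgfb3 (1.82) and Tgfbr1 (1.60), and between liver and ileum for Ltbp1 (1.47), each with a limma adjusted p under the threshold for the difference itself. In each case the liver effect was the more positive. Batch and tissue coincide in these contrasts.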

How the results depend on the processing

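The 9 increases in liver after SBR were called under every alternative that tested them (6 of 6 with a filter at a mean of 3, which leaves out Tgfb3, Ltbp1 and Pdgfb). The count of 4 members lower with treatment in liver became 2 with that filter, 0 without moderation, 0 with the compared groups alone and 7 with library weights, and 0 to 5 when 1 library was left out. The 2 with that filter were Pdgfrb and Pdgfra, the latter not called without it (limma adjusted p = 0.0461 with it). Library weights also called 2 members lower in duodenum after SBR, Tgfbr1 (-1.40) and Pdgfra (-1.43). Over all genes they called 1.34% higher and 15.2% lower there. Against sham they called Pdgfra lower in treated duodenum, where 2.41% of all genes were higher and 5.04% lower. In treated ileum against sham they called Pdgfrb higher, where 3.15% of all genes were higher and 1.69% lower. Leaving out 1 library gave 0 to 1 for duodenum after SBR and 0 to 1 for treated ileum against sham. The 1 member that differed between liver and ileum became 0 with the stricter filter, 2 with weights, 0 with the replicate block and 0 to 1 when 1 library was left out, and the 6 between liver and duodenum became 1 with the stricter filter (6 to 8 when 1 library was left out). The causes were not tested, beyond the fewer genes that the filter admits. Other than leaving out a library, 1091 results kept direction and side of the threshold under an alternative, 17 reversed, 14 were gained, 15 were lost and 69 moved.

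The reversals were of uncalled values. In duodenum after SBR, Tgfb3 was 0.068 and Pdgfa 0.28 with centering, and 0.040 and 0.24 with quantile normalization. Pdgfb was 0.036 with treatment in duodenum at a pseudocount of 5, and Pdgfa 0.0046 against sham with centering. With treatment in ileum, Ltbp1 was -0.0037 at a pseudocount of 0.1, -0.0079 with quantile normalization and -0.43 with weights, which also gave Tgfb3 -0.17, Tgfbr2 -0.088 and Pdgfra -0.0088. In liver, a pseudocount of 5 turned the ratios of Tgfb3 to Tgfb1 against sham (-0.020), Pdgfb to Pdgfa after SBR (-0.16) and Pdgfrb to Pdgfra with treatment (-0.030, and -0.0067 with quantile normalization), and a pseudocount of 0.1 that of Pdgfb to Pdgfa against sham (0.092).

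Leaving out 1 library also turned signs. In duodenum the ranges were -0.54 to 0.46 for Pdgfa, -0.84 to 0.11 for Pdgfrb, -0.51 to 0.0092 for Tgfb3 and -0.012 to 0.73 for Tgfbr2 after SBR, -0.19 to 0.29 for Ltbp1, -0.51 to 0.12 for Pdgfa and -0.41 to 0.30 for Pdgfb with treatment, and -0.77 to 0.23 for Pdgfa against sham. In ileum they were -0.076 to 0.34 for Tgfbr1 after SBR, -0.30 to 0.18 for Ltbp1, -0.057 to 0.45 for Pdgfra, -0.20 to 0.65 for Tgfb1, -0.057 to 0.34 for Tgfb3 and -0.15 to 0.38 for Tgfbr2 with treatment, and -0.14 to 0.46 for Ltbp1, -0.71 to 0.23 for Tgfb1 and -0.59 to 0.031 for Tgfbr1 against sham. The liver ratios of Pdgfb to Pdgfa against sham (-0.15 to 0.040) and Pdgfrb to Pdgfra with treatment (-0.048 to 0.12) did so too.

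Replicate numbers did not pair the samples: deviations of same-numbered libraries correlated above 0.1 in 2 of 15 pairs in liver, 3 of 10 in duodenum and 1 of 10 in ileum. With the replicate block, liver counts were 9, 4 and 9 for SBR, treatment and treated against sham. With unknown depth and 3 or 4 libraries per group, intestinal changes smaller than the intervals given could not be detected.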
